A study of Mus musculus with 6 samples.

Results

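The genes described here are pluripotency factors and stem cell markers of mouse embryonic stem cells. They were chosen as rows whose symbol is on a list of 43 names, and 37 of these names were symbols among the 6532 genes analysed. Nanog, Dppa3, Prdm1, Otx2, Rex2 and Ronin were not analysed under those names, although Ronin is an older name of Thap11, which was. All cells were E14, a mouse embryonic stem cell line kept in serum with LIF on gelatin. Wild-type E14 were transfected with an siRNA pool that targets no gene (siCtrl) or a pool targeting PKM (siPKM), at 20 nM for 36 h, replated 16 h before they were collected and treated for 2 min with 100 µg per ml of cycloheximide. For both conditions there was 1 library of total RNA without rRNA and 1 of ribosome-protected fragments (RPF, or footprints), cut with RNase A and RNase T1. A further 2 libraries came from FAST-iCLIP of E14 cells expressing FLAG-HA-tagged PKM2, which were irradiated with ultraviolet light at 0.35 J per cm2. In iCLIP a protein is crosslinked to the RNA it touches, and the stops of reverse transcription next to the crosslink are counted.

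Embryonic stem cells keep the potency of the early epiblast through a network of transcription factors around Pou5f1 (Oct4) and Sox2. In serum medium the network is held by LIF, which acts through Stat3 on factors such as Klf4 and Tfcp2l1, and it is opposed by FGF and ERK signalling. PKM is pyruvate kinase M, the last enzyme of glycolysis, and the series asked about its binding to RNA and about translation after its knockdown.

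Some promoters of these genes carry matches to the motifs of the network's own factors, and 3 are shown to give the regulatory sequence beside the message levels reported further on. RefSeq windows (GRCm38.p6) matched 27 of the 37 genes, with 33 windows, and the 250 bases before each start site were searched on both strands. The octamer bound by POU factors, ATGCAAAT, was in 1 of the 33 windows (3.03%, against 1.6% of all 32851 windows), that of Zfp42. The Klf and Sp site CCACGCCC was in 6 windows (18.2%, against 4.79%), those of Foxd3, L1td1, Nr5a2, Tcf3, Tcfcp2l1 and Tdgf1. The Sox core ACAATG was in 3 (9.09%, against 10.7%), the Myc E-box CACGTG in 3 (9.09%, against 6.02%), the STAT site TTCCNGGAA in 1 (3.03%, against 0.913%), the CACCC box CCACACCC in 1 (3.03%, against 3.2%) and the Esrrb site TCAAGGTCA in 0 (against 0.387%). No match overlapped another. In the sequences below capitals mark these matches on either strand: the octamer and the CACCC box in Zfp42 (chr8:43307010-43307259, minus strand), and a pair of Klf and Sp sites in Tcfcp2l1 (chr1:118627695-118627944, plus strand) and in Tdgf1 (chr9:110946159-110946408, minus strand).
Zfp42: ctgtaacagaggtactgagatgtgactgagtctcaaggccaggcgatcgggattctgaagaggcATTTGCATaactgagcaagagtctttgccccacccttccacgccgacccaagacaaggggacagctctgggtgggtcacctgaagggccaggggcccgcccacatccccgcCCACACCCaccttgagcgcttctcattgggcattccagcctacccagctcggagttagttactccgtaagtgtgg
Tcfcp2l1: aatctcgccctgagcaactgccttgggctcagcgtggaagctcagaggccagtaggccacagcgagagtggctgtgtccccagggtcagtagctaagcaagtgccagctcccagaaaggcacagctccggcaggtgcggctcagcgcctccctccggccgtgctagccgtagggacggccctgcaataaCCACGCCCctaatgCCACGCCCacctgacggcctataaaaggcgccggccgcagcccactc
Tdgf1: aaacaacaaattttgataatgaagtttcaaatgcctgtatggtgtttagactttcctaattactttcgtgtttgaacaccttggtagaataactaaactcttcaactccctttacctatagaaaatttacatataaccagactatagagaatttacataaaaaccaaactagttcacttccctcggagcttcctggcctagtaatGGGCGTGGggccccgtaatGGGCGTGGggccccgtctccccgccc
A match is a description of the letters, and binding of these factors was not measured here.

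The libraries held 12111993 (siCtrl RNA), 10349212 (siPKM RNA), 15175242 (siCtrl RPF) and 12545485 (siPKM RPF) reads in coding sequence (CDS), without the first 15 and last 5 codons, and the CLIP replicates held 677534 and 670508 stops. All ratios below are log2 values of siPKM over siCtrl after scaling to the library's sum and centring on the median of all genes, with 95% intervals from read counts in parentheses. With 1 library per condition and kind there is no test of the conditions, no p-value and no replicate check, and the intervals cover counting error only. Genes at least 1.5-fold from the median gene were counted instead. The targeted gene (Pkm2 in the table) had 60849 RNA reads in siCtrl and 16371 in siPKM, a ratio of -1.71. In bulk libraries fewer cells of a type and less RNA per cell cannot be told apart.

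The pluripotency genes were well covered, and their message levels after knockdown were centred near the typical gene. They had a median of 1511 RNA reads and 3746 footprints in siCtrl, against 764 and 838 over all genes, and their lowest value in any library was 194. Their summed level was 14019 CPM (reads scaled to the library's CDS total) in siCtrl RNA and 13507 CPM in siPKM RNA, and 19176 and 17013 CPM among footprints. Trim28 alone stood at 4037 and 3435 CPM in RNA, a larger drop than that of the sum. Among footprints Trim28 stood at 4859 and 3789 CPM. The median ratio of the 37 genes was 0.07 in RNA, with 19 above and 18 below the median gene. In RPF it was -0.14, with 10 above and 27 below, where all genes have 0 by construction. At least 1.5-fold higher in RNA were 2 of the 37 (Tbx3 and Tcl1), against 2.88% of all genes, and 1 was lower (Mycn), against 1.24%. In RPF 1 was higher (Tbx3), against 2.66%, and 2 were lower (Mycn and Klf2), against 1.53%. At a smaller size, 0.32 on the log2 scale, 6 were higher and 4 lower in RNA, against 12.4% and 8.47% of all genes, and 3 were higher and 9 lower in RPF, against 11.1% and 8.7%. RNA intervals lay wholly above 0 for 14 and wholly below for 16, against 27.7% and 28.7%, and RPF intervals for 8 and 22, against 26.6% and 28.7%. RNA and RPF ratios had a Spearman correlation of 0.83 over the 37 genes and 0.67 over all genes, which are not independent replicates.

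**Figure D1:**
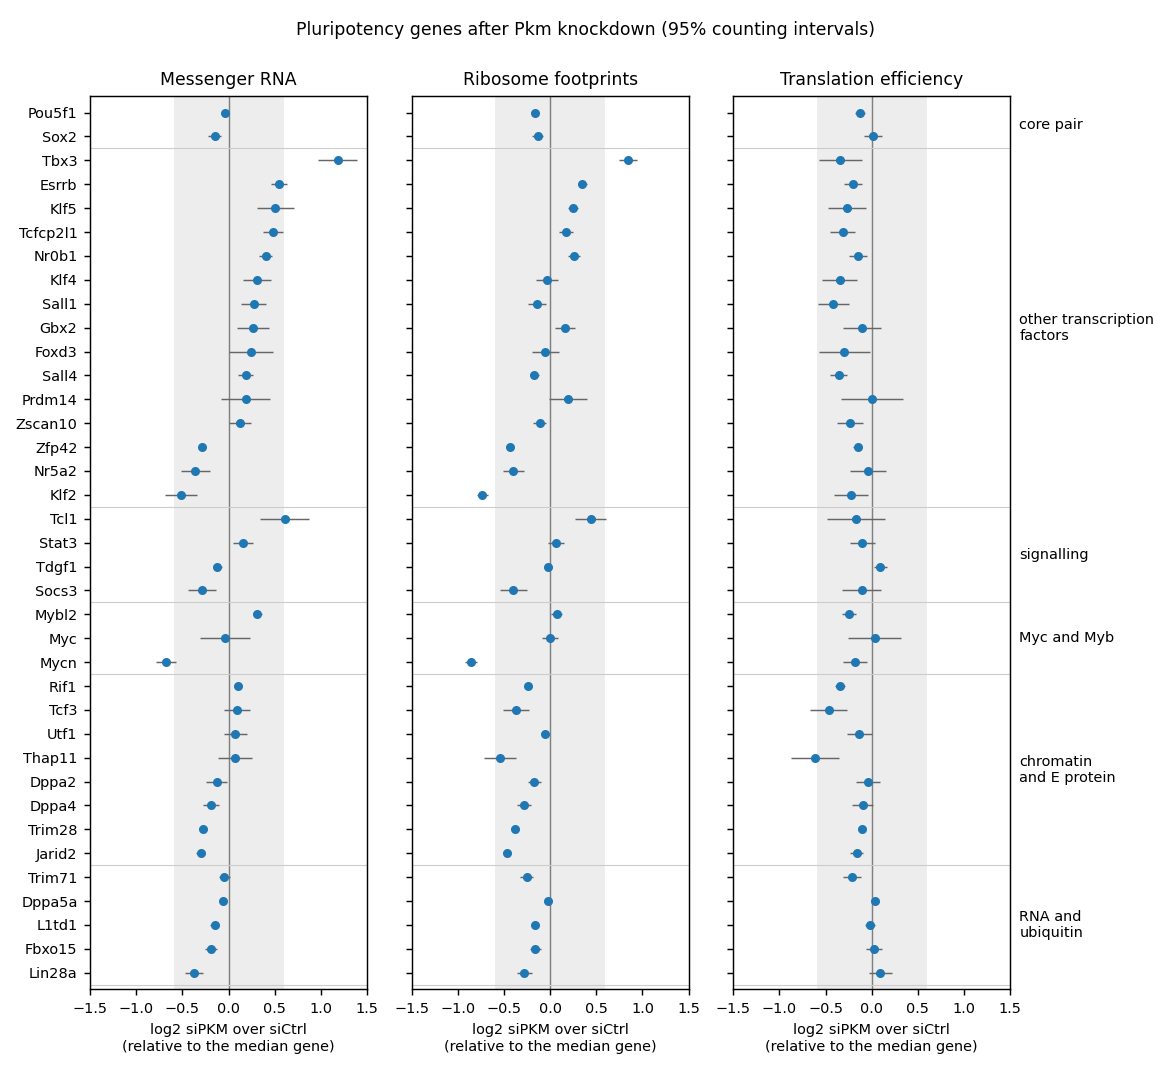
Log2 ratios of siPKM over siCtrl for the 37 pluripotency genes in RNA, footprints and translation efficiency (TE), relative to the median gene, grouped by role. Points are single ratios, bars are 95% intervals from read counts, and the grey band spans 1.5-fold either way. Tbx3 (1.18 in RNA) stands alone at the high end, Mycn (-0.68) and Klf2 (-0.52) stand at the low end, and 30 of the 37 TE ratios lie below 0.

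In footprints both genes of the core pair were slightly below the median gene, while in RNA Sox2 was below it by a like amount and Pou5f1 was closer to it. Pou5f1, the POU-domain factor that defines the pluripotent state, had 14928 RNA reads in siCtrl and 12857 in siPKM, and 9988 and 7487 footprints. Its ratios were -0.04 in RNA, which changed sign without centring (0.01), and -0.16 (-0.21 to -0.12) in RPF. Sox2, its HMG-box partner, had 3441 and 2736 RNA reads and 4741 and 3618 footprints. Its ratios were -0.15 (-0.22 to -0.08) and -0.14 (-0.20 to -0.07), which were nearly equal. Pou5f1, Tdgf1 and Zfp42 have pseudogene copies in the RefSeq gene table, and how reads matching several places were handled is not stated in the labels, so their single values are uncertain.

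The 3 Krüppel-like factors, zinc finger activators that can stand in for one another in stem cells, differed in direction. Klf2 had 707 and 436 RNA reads and 6460 and 3253 footprints, with ratios of -0.52 (-0.69 to -0.34) in RNA and -0.74 (-0.80 to -0.68) in RPF. Klf5 had 372 and 467 RNA reads and 5045 and 5019 footprints, with ratios of 0.51 (0.31 to 0.70) and 0.25 (0.19 to 0.30). Klf4 had 669 and 732 RNA reads and 1255 and 1027 footprints, with ratios of 0.31 (0.16 to 0.46) and -0.04 (-0.16 to 0.08), the latter 0.01 with abundant genes as the reference. The RNA intervals of Klf4 and Klf5 lay above 0 and did not overlap that of Klf2.

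Tbx3, a T-box factor downstream of LIF and Akt signalling, had the largest ratio of the 37 genes. It had 266 and 533 RNA reads and 1517 and 2283 footprints. The ratios were 1.18 (0.97 to 1.39) in RNA, the 8th highest of all 6532 genes, and 0.84 (0.75 to 0.94) in RPF, the 51st highest. Esrrb, an orphan nuclear receptor of the naive network, came next among the transcription factors, with 1871 and 2415 RNA reads and 7238 and 7732 footprints. Its ratios were 0.55 (0.46 to 0.64) in RNA and 0.35 (0.30 to 0.39) in RPF. Without centring its RNA ratio of 0.60 passed 1.5-fold.

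The other genes grouped with these as transcription factors outside the core pair, where RNA ratios were above 0, were all within 1.5-fold of the median gene. Tcfcp2l1 (now Tfcp2l1), a target of Stat3 with a pair of Klf and Sp sites in the promoter shown above, stood at 0.48 in RNA and 0.17 in RPF. Nr0b1 (Dax1), an orphan receptor that represses transcription, had 3091 and 3601 RNA reads and 3915 and 3918 footprints, with ratios of 0.40 and 0.25. The spalt zinc finger genes had higher RNA and lower footprint ratios. Sall1 had 850 and 905 RNA reads and 2107 and 1603 footprints, giving 0.27 in RNA and -0.14 in RPF. Sall4, which interacts with Pou5f1, had 2515 and 2527 RNA reads and 8155 and 6082 footprints, giving 0.19 and -0.17. Gbx2, a homeobox target of Stat3, stood at 0.26 and 0.16, the forkhead factor Foxd3 at 0.24 and -0.05, Prdm14, a repressor of FGF signalling and DNA methylation genes, at 0.19 and 0.19, and Zscan10 at 0.12 and -0.11. The RNA intervals of Prdm14 and Zscan10 reached below 0.

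Apart from Klf2, 2 genes of this set were lower in both kinds of library. Nr5a2, a nuclear receptor that binds regulatory regions of Pou5f1, had 787 and 540 RNA reads and 1563 and 993 footprints, with ratios of -0.36 (-0.52 to -0.20) and -0.40 (-0.52 to -0.29). Zfp42 (Rex1), a marker of naive cells and the gene with the octamer above, stood at -0.29 and -0.44. These 15 genes were grouped here as other transcription factors outside the core pair. In RNA 12 were above and 3 below the median gene, with a median of 0.26. In RPF 7 were above and 8 below, with a median of -0.04.

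Signalling genes split. Stat3, the transcription factor activated by LIF, stood at 0.16 (0.05 to 0.27) in RNA and 0.06 (-0.03 to 0.14) in RPF, while Socs3, its feedback inhibitor and target, stood at -0.29 (-0.44 to -0.14) and -0.40 (-0.55 to -0.25). Tcl1, a coactivator of the kinase Akt, had 194 and 261 RNA reads, the fewest of the 37 in siCtrl, and 527 and 599 footprints. Its ratios were 0.61 (0.34 to 0.87) and 0.44 (0.27 to 0.61), and its RNA ratio was under 1.5-fold with the whole coding sequence (0.52) and with reads of the whole transcript (0.43). Tdgf1 (Cripto), a coreceptor of Nodal, had 7111 and 5769 RNA reads and 8522 and 7026 footprints, with ratios of -0.12 and -0.03, the latter 0.02 with abundant genes as the reference.

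The Myc family diverged. Mycn had 1953 and 1077 RNA reads and 5405 and 2502 footprints, giving the lowest ratios of the 37 genes, -0.68 (-0.79 to -0.57) in RNA and -0.86 (-0.93 to -0.79) in RPF. Myc had 234 and 201 RNA reads and 2212 and 1852 footprints. Its ratio of -0.04 (-0.31 to 0.23) in RNA had an interval across 0, and its footprint interval was -0.09 to 0.09. Without centring both of its ratios were above 0, at 0.01 and 0.02. Mybl2 (B-Myb), which drives cell cycle genes, stood at 0.31 (0.26 to 0.36) in RNA and 0.07 (0.01 to 0.13) in RPF.

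All 8 genes of chromatin and related regulators had footprint ratios below the median gene. Thap11, a zinc finger factor that works with Hcfc1, had 473 and 438 RNA reads and 698 and 402 footprints, with ratios of 0.07 (-0.12 to 0.26) in RNA, or -0.07 on the whole transcript, and -0.54 (-0.72 to -0.37) in RPF. Jarid2, a cofactor of the Polycomb complex PRC2, had 6762 and 4834 RNA reads and 11474 and 6981 footprints, with ratios of -0.30 (-0.36 to -0.25) and -0.46 (-0.51 to -0.42). Trim28 (KAP1), the corepressor that silences retroelements, stood at -0.28 and -0.38. The replication timing factor Rif1 stood at 0.10 and -0.24, and Utf1, a chromatin-bound stem cell protein, at 0.07 and -0.06. The partners Dppa2 and Dppa4, which bind together at developmental promoters, stood at -0.13 and -0.17, and at -0.19 and -0.28. The row named Tcf3 (NM_001164147) is described in the table as transcription factor E2-alpha, a basic helix-loop-helix protein, and is not the Tcf3 of Wnt signalling, which is now named Tcf7l1. It had 849 and 798 RNA reads and 978 and 634 footprints, with ratios of 0.09 (-0.05 to 0.23) and -0.37 (-0.52 to -0.23).

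The 5 genes of a group of RNA-binding proteins and the F-box protein Fbxo15 were below the median gene in both kinds of library. However, Trim71 and Dppa5a were so close to the median gene that their sign depended on the reference. With a higher read floor Trim71 stood at 0.02 and Dppa5a at 0.01 in RNA, and with abundant genes as the reference Trim71 stood at 0.01 in RNA and Dppa5a at 0.02 in RPF. Lin28a, which blocks maturation of let-7 microRNAs, had 2154 and 1463 RNA reads and 2962 and 2045 footprints, with ratios of -0.38 (-0.47 to -0.28) in RNA and -0.28 (-0.36 to -0.20) in RPF. Dppa5a, a KH-domain protein, had 14036 and 11897 RNA reads and 28212 and 23330 footprints, with ratios of -0.06 and -0.02. L1td1, derived from a LINE-1 protein, stood at -0.15 and -0.17, and Trim71 (Lin41), a let-7 target, at -0.05 and -0.26. Fbxo15, an F-box protein grouped with them, stood at -0.19 and -0.16.

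Translation efficiency (TE) is footprints over RNA, and its change is the RPF ratio minus the RNA ratio, centred again. The pluripotency genes had a median TE change of -0.15, with 30 of 37 below the median gene, against 50% of all genes. At least 1.5-fold lower was 1 gene (Thap11), against 0.827% of all genes, and 0 were higher, against 0.184%. Intervals lay wholly below 0 for 22 of the 37, against 14.7% of all genes, and wholly above 0 for 1 (Tdgf1), against 14.1%. The genes described here had more reads than the table's median gene, which narrows their intervals. At least 0.32 lower on the log2 scale were 7 genes, against 6.26% of all genes, and 0 were that much higher, against 3.8%, so that the other 30 lay within that size of the median gene.

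Thap11 was lowest at -0.61 (-0.87 to -0.36), followed by Tcf3 at -0.47 (-0.67 to -0.27), Sall1 at -0.41 (-0.58 to -0.25) and Sall4 at -0.36 (-0.45 to -0.27). With the whole coding sequence, Thap11 stood at -0.52 and no longer passed 1.5-fold. Klf4 and Rif1 followed at -0.35 each, Tbx3 at -0.34, Tcfcp2l1 at -0.32, Foxd3 at -0.30 and Klf5 at -0.27. Mybl2 and Zscan10 stood at -0.24, Klf2 at -0.22, Trim71 at -0.21, Esrrb at -0.20 and Mycn at -0.18.

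Among the rest, Tcl1 stood at -0.17, Jarid2 at -0.16, Zfp42 and Nr0b1 at -0.15, and Utf1 and Pou5f1 at -0.13. Socs3 and Gbx2 stood at -0.11, Trim28, Stat3 and Dppa4 at -0.10, Dppa2 and Nr5a2 at -0.04 and L1td1 at -0.02. At the high end were Lin28a at 0.09 (-0.03 to 0.22), Tdgf1 at 0.09 (0.03 to 0.16), Dppa5a at 0.03, Myc at 0.03, Fbxo15 at 0.03, Sox2 at 0.01 and Prdm14 at 0.00, of which Sox2 and Prdm14 were below 0 without centring. Across the 37 genes, the RNA ratio and the TE change had a Spearman correlation of -0.50, and across all 6532 genes of -0.38. Both measures hold the RNA reads with opposite sign, so part of this is built in, and genes are not independent replicates.

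In control cells the pluripotency messages carried more footprints per RNA read than the table's median gene. Their median log2 TE in siCtrl was 0.80 relative to the median gene, 33 of 37 were above 0, and 16 were among the highest 10% of all genes. In siPKM the median was 0.56 and 29 were above 0. Of the 52 chromatin and transcription partners listed further on, 40 were above 0 in siCtrl and 19 were among the highest 10%. Of 44 other embryonic stem cell genes, 35 were above 0 and 10 were among the highest 10%. The signalling lists had lower medians, between -0.02 (BMP, Nodal and activin) and 0.34 (Wnt to beta-catenin). The TE ratio does not depend on coding length, because both counts come from the same sequence.

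**Figure D2:**
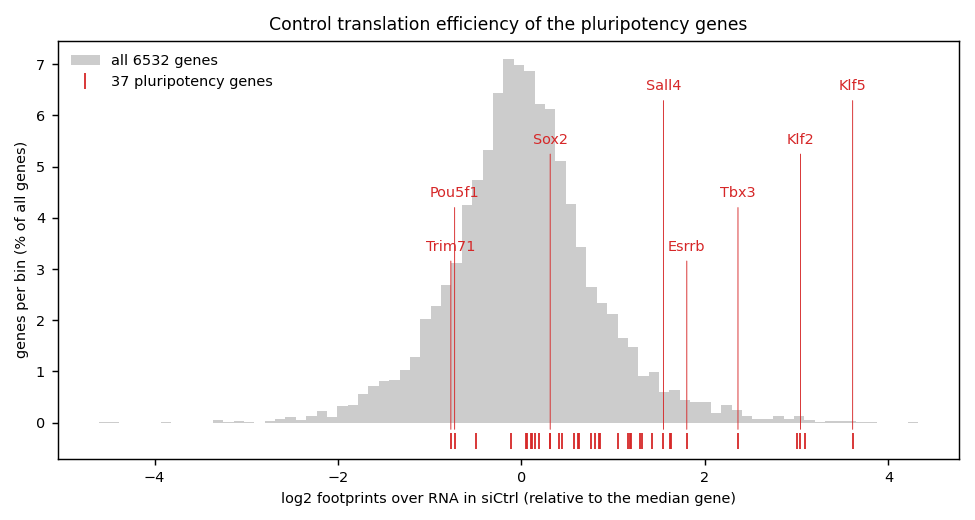
Distribution of log2 footprints over RNA in siCtrl, relative to the median gene, for all 6532 genes (grey bars, percent of genes per bin) and for the 37 pluripotency genes (red ticks). Klf5 (3.61), Myc (3.09) and Klf2 (3.04) lie near the top of the table, while Pou5f1 (-0.73) and Trim71 (-0.77) lie below its median.

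The highest was Klf5 at 3.61 (3.46 to 3.76), 4th of 6532 genes, followed by Myc at 3.09, Klf2 at 3.04 and Utf1, with an interval of 2.91 to 3.09, ranked 13, 15 and 18. Tbx3 stood at 2.36, Esrrb at 1.80, L1td1 at 1.63, Zscan10 at 1.62, Sall4 at 1.55 and Foxd3 at 1.43. Intervals of Myc, Klf2 and Utf1 overlapped, so these 3 could not be ordered. Mycn (1.32), Tcl1 (1.29), Gbx2 (1.19), Tcfcp2l1 (1.18), Sall1 (1.16) and Dppa2 (1.05) were also among the highest 10%. Below the median gene were Fbxo15 at -0.11, Mybl2 at -0.50, Pou5f1 at -0.73 (-0.77 to -0.69) and Trim71 at -0.77 (-0.83 to -0.71). The 15 genes grouped as other transcription factors outside the core pair had a median of 1.19. The 8 genes of chromatin and related regulators had 0.53, and the 5 genes of the group of RNA-binding proteins and Fbxo15 had 0.31. The remaining 17 genes lay between 0.05 (Socs3 and Tcf3) and 0.86 (Dppa5a), with Sox2 at 0.31 and Klf4 at 0.76.

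Several of these messages carried many footprints upstream of the coding sequence. The share of a gene's footprints in the 5' UTR had a median of 8.76% over the 37 genes in siCtrl, against 3.85% over all genes. In RNA the median shares were 6.60% and 2.67%. At least 20% of footprints were upstream in 7 genes, against 8.56% of all genes. These were Socs3 at 34.6% (95% Clopper-Pearson interval 32.3 to 37.0), Trim71 at 33.4% (32.2 to 34.7), Myc at 28.1%, Tbx3 at 27.6%, Sox2 at 27.1%, Tdgf1 at 25.0% and Gbx2 at 24.3%. Their RNA shares in siCtrl were between 10.4% (Tbx3) and 21.1% (Trim71), so each had a larger share of footprints than of RNA reads there. Shares are of all reads of a transcript. Over the 37 genes in siCtrl the 3' UTR held a median of 35.6% of RNA reads and 0.12% of footprints. That alone makes 5' UTR shares smaller in RNA, so the difference was partly built in and nothing is read from it.

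After knockdown the share was higher with intervals that did not overlap in 4 of the 37 genes, against 0.811% of all genes, and lower in 1, against 2.88%. The 37 genes had a median of 3746 footprints in siCtrl, against 838 over all genes, which narrows their intervals. Thap11, the gene with the lowest TE change, stood at 13.1% (11.0 to 15.4) in siCtrl, or 125 of 956 footprints, and at 19.4% (16.3 to 22.7) in siPKM, or 120 of 620, while its RNA shares were 9.42% and 10.2%. Zfp42 stood at 19.3% (18.7 to 19.8) and 22.5% (21.7 to 23.2), with 19.4% and 20.3% in RNA. Mybl2, at 14.5% (13.6 to 15.3) and 16.8% (15.8 to 17.8), also had the higher RNA share in siPKM, 6.48% against 5.37%. Pou5f1 stood at 3.40% (3.07 to 3.74) and 4.44% (4.02 to 4.90), with the lower RNA share in siPKM, 3.98% against 4.31%. Trim28 was lower in siPKM in both, at 9.55% (9.35 to 9.75) and 9.03% (8.79 to 9.27) of footprints and 6.95% and 6.43% of RNA reads. Taking 3 counts as the limit that a count of 0 allows, Klf2 had 0 of 7027 footprints upstream in siCtrl, which allows up to 0.0427%, and Nr0b1 had 0 of 4066, which allows up to 0.0738%. Few of their siCtrl RNA reads lay there either, 7 of 1520 for Klf2 and 54 of 4119 for Nr0b1. Nr5a2 also had 0 upstream in siCtrl, of 1566 footprints (up to 0.192%) and of 1555 RNA reads. With no RNA reads there, nothing is read from its 0 footprints. The share over the first 15 codons was lower in siPKM for Pou5f1, at 7.62% (7.14 to 8.12) in siCtrl and 5.50% in siPKM, and for Trim28, at 2.23% and 1.96%, against 2.82% of all genes. It was higher for Zfp42, at 2.84% and 3.50%, against 1.91%.

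**Figure D3:**
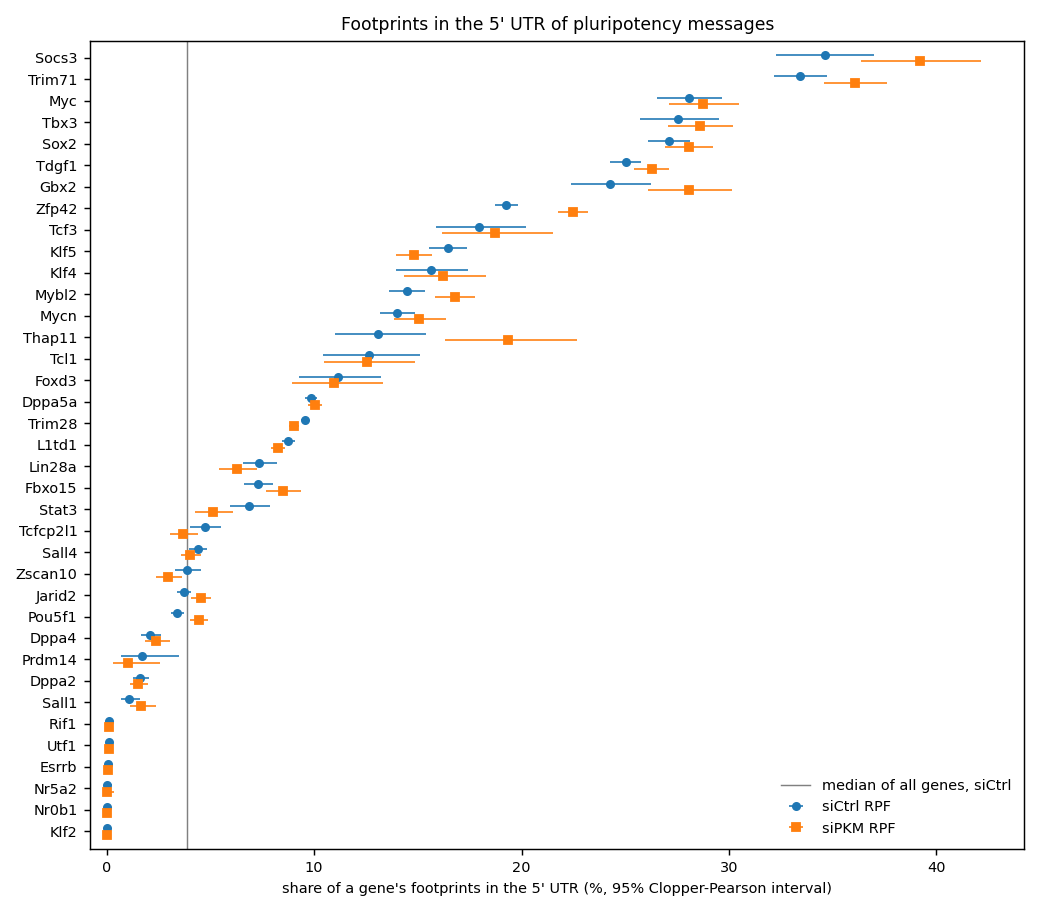
Share of each gene's footprints that lay in the 5' UTR in siCtrl (circles) and siPKM (squares), in percent with 95% Clopper-Pearson intervals, for the 37 pluripotency genes in order of the siCtrl share. The vertical line is the median of all genes in siCtrl (3.85%). Socs3 and Trim71 are highest, and the intervals of Thap11 and Zfp42 separate between conditions.

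PKM2 crosslinks were compared with message levels for the same genes. In CPM of stops, which are not scaled to message length or level, Trim28 had the most of the 37 at 1656 ± 15.1 (SD, n = 2). Rif1 followed at 1479 ± 82.2, Jarid2 at 1423 ± 76.6, Tcfcp2l1 at 1365 ± 24.7, Trim71 at 1136 ± 32.5 and Tdgf1 at 1056 ± 69.8. The fewest were at Thap11 (40.1 ± 2.39), Prdm14 (40.8 ± 11.8), Dppa4 (44.5 ± 0.33) and Dppa2 (48.9 ± 12.2). Pou5f1 had 292 and 298 stops and Sox2 had 485 and 481. The series as used here holds no CLIP library of untagged cells, so stops include background, and the RNA they are set against is that of wild-type siCtrl cells.

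Relative to control RNA on the whole transcript, the 37 genes had a median log2 CLIP over RNA of 0.72, against 0.08 over all genes, with 23 above the table's median. A median above 0.08 was not particular to them, as the further lists described below had it too. It was 1.21 for BMP, Nodal and activin genes, 1.08 for Wnt to beta-catenin genes and 0.89 for FGF to ERK genes. Other embryonic stem cell genes had 0.59, LIF to STAT3 genes 0.46 and chromatin and transcription partners 0.16. Among the highest 10% of all genes were 7 of the 37. Tbx3 was highest at 3.55 ± 0.02, the 45th of 6532 genes, then Klf5 at 3.14 ± 0.26, Utf1 at 2.56 ± 0.02, Foxd3 at 2.45 ± 0.07, Sall1 at 2.12 ± 0.13, Tcfcp2l1 at 2.08 ± 0.03 and Klf2 at 1.94 ± 0.01. Sall4 stood at 1.86, Zscan10 at 1.65, Myc at 1.63, Jarid2 at 1.56, Esrrb at 1.54 and Rif1 at 1.44. Prdm14 (1.27), Klf4 (1.23), Tcf3 (1.19) and Trim71 (1.13) followed.

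**Figure D4:**
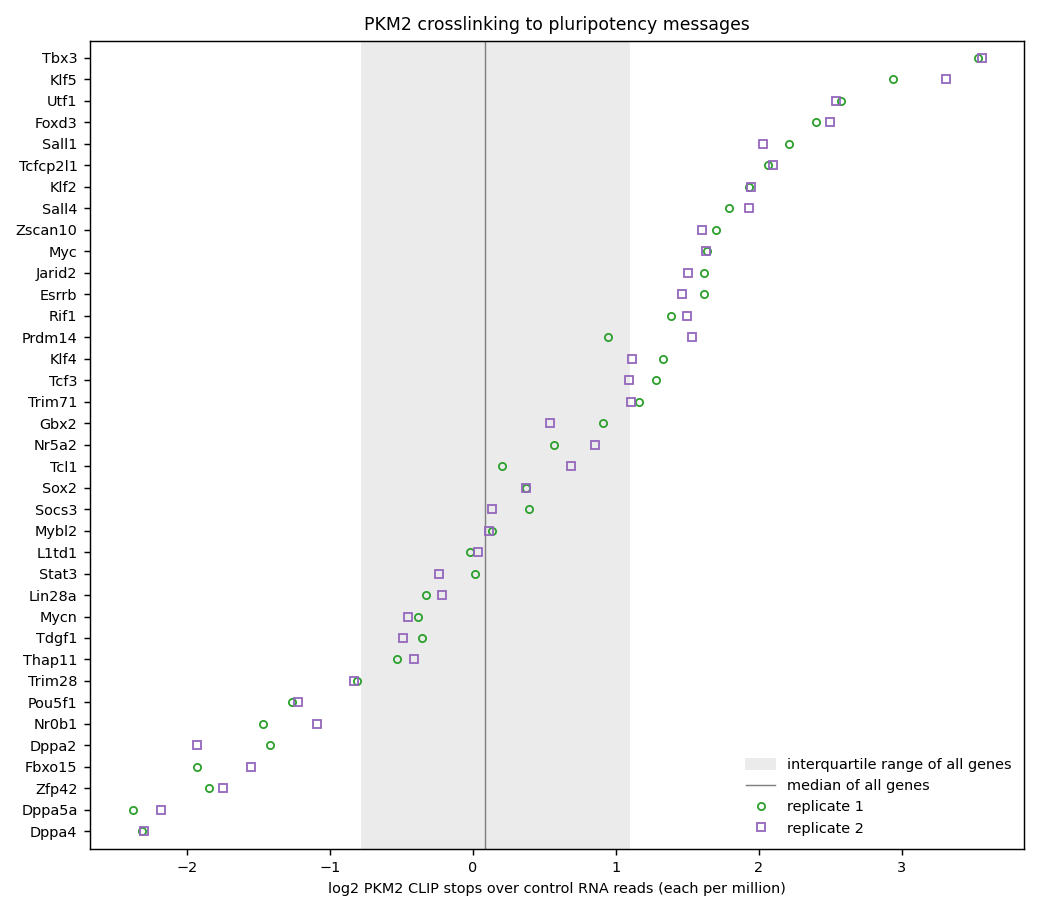
Log2 of PKM2 CLIP stops over siCtrl RNA reads, each scaled to its library's total, for the 37 pluripotency genes in both replicates (circles and squares). The grey band is the interquartile range of all genes and the line their median (0.08). Tbx3 (3.55) and Klf5 (3.14) are at the high end, and Dppa5a (-2.28), Zfp42 (-1.80) and Pou5f1 (-1.25) are at the low end.

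Lower than Trim71 but above the table's median (0.08) were Gbx2 at 0.74, Nr5a2 at 0.72, Tcl1 at 0.47, Sox2 at 0.37, Socs3 at 0.27 and Mybl2 at 0.12. Below that median were L1td1 at 0.01, Stat3 at -0.11 and Lin28a at -0.27. Mycn and Tdgf1 stood at -0.42, Thap11 at -0.47 and Trim28 at -0.82. The lowest were Pou5f1 at -1.25 ± 0.03, Nr0b1 at -1.27 ± 0.27, Dppa2 at -1.65 ± 0.36, Fbxo15 at -1.73 ± 0.27, Zfp42 at -1.80 ± 0.07, Dppa5a at -2.28 ± 0.14 and Dppa4 at -2.31 ± 0.01. Across the 37 genes, control TE and CLIP over RNA had a Spearman correlation of 0.64, and across all genes of 0.19, with control RNA reads as divisor in both. With control footprints as the divisor the median of the 37 genes was 0.37, the same as that of all genes (0.37), and 19 of 37 were above it. These footprints are of the coding sequence only, while the stops are of the whole transcript. The measure thus also rises with stops in the UTRs, and the 2 divisors are not alike. By that measure Tcfcp2l1 (2.80), Trim71 (2.34) and Tbx3 (2.12) were highest and Dppa5a (-2.56), Dppa2 (-2.21) and Dppa4 (-2.19) lowest.

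The pathways that feed the network were read from further lists, whose counts at 1.5-fold stand beside shares over all genes of 2.88% higher and 1.24% lower in RNA and 0.184% higher and 0.827% lower in TE. The counts were 0 to 3 in lists of 14 to 52 genes, and nothing particular to a list is read from them. Of LIF to STAT3 genes 14 of 23 were analysed. In RNA 0 were at least 1.5-fold higher and 1 lower, in TE 0 were past that size, and their medians were 0.09 and -0.11. Highest in RNA were the kinase Jak1 (0.32) and the STAT inhibitor Pias1 (0.29), and lowest the adaptor Grb2 (-0.68) and the kinase Pim1 (-0.17). In TE Grb2 (0.51) and the phosphatase Ptpn11 (0.04) were highest and Pias1 (-0.26) and Gab1 (-0.23) lowest. Of FGF to ERK genes 22 of 32 were analysed, with 1 higher and 0 lower in RNA, 0 past 1.5-fold in TE, and medians of 0.11 and -0.01. The ERK phosphatase and target Dusp6 (0.89) and the ETS factor Etv4 (0.51) were highest in RNA, and the ERK kinase Mapk3 (-0.33) and the stem cell Ras protein Eras (-0.32) lowest. In TE Mapk3 (0.21) and Eras (0.19) were highest and Spred2 (-0.43) and Map2k2 (-0.32) lowest.

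Of Wnt to beta-catenin genes 19 of 35 were analysed, with 1 higher and 1 lower in RNA, 0 higher and 1 lower in TE, and medians of 0.16 and -0.12. The kinase Csnk1e (0.79) and the destruction complex scaffold Apc (0.54) were highest in RNA, and the Wnt inhibitor Notum (-1.09) and the cadherin Cdh1 (-0.21) lowest. In TE Notum (0.35) and Csnk1d (0.13) were highest and Apc (-0.65) and Ctbp1 (-0.53) lowest. Of BMP, Nodal and activin genes 22 of 34 were analysed, with 2 higher and 1 lower in RNA, 0 past 1.5-fold in TE, and medians of 0.18 and -0.05. Bmp4, a ligand that supports self-renewal (0.84), and the protease Pcsk6 (0.60) were highest in RNA, and the Nodal inhibitor Lefty1 (-0.93) and Skil (-0.50) lowest. In TE Tgfbr1 (0.40) and Pcsk6 (0.24) were highest and Bmpr2 (-0.45) and Drap1 (-0.38) lowest.

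Of other embryonic stem cell genes 44 of 50 were analysed, with 2 higher and 3 lower in RNA, 0 past 1.5-fold in TE, and medians of 0.03 and -0.05. Bmp4 and Zfp57 (0.63) were highest in RNA, and the DNA methyltransferase Dnmt3b (-1.08) and the adhesion protein Epcam (-0.75) lowest. In TE Mbd3 and Morc1 (0.26 each) were highest and the demethylase Tet1 (-0.47) and Phc1 (-0.41) lowest. All 52 listed chromatin and transcription partners were analysed, with 1 higher and 0 lower in RNA, 0 past 1.5-fold in TE, and medians of 0.01 and -0.09, and 36 of the 52 were below the median gene in TE. The cohesin loader Nipbl (0.59) and the Mediator subunit Med12 (0.54) were highest in RNA, and Leo1 (-0.36) and Kdm1a (-0.33) lowest. In TE the cohesin subunit Smc1a (0.29) and Cbx3 (0.24) were highest and Nipbl (-0.48) and Ep400 (-0.46) lowest. In the other lists, 12 of 14 LIF to STAT3 genes, 12 of 22 FGF to ERK genes and 13 of 19 Wnt genes were below the median gene in TE. So were 14 of 22 BMP, Nodal and activin genes and 28 of 44 other embryonic stem cell genes. A TE change below 0 in most genes was thus not particular to the pluripotency genes (30 of 37).

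Markers of other cell types were few. Of epiblast-like markers 3 of 10 were analysed, of primitive endoderm 4 of 13, of trophoblast 3 of 12, of neural cells 4 of 9, of fibroblasts 1 of 8, of mesoderm 0 of 7 and of 2-cell-like cells 0 of 7. The primitive endoderm markers summed to 637 CPM in siCtrl RNA and 783 in siPKM RNA. Their RNA ratios were 0.82 for the laminin Lama1, 0.76 for the collagen Col4a1, 0.07 for Cubn and -0.24 (-0.30 to -0.18) for the laminin Lamb1, and other cells also make laminins and collagens. The epiblast-like markers summed to 794 and 561 CPM, with RNA ratios of -1.08 for Dnmt3b, -0.03 for Dnmt3a and 0.28 for Zic2, so that the lower sum came from Dnmt3b. The trophoblast markers summed to 77.5 and 83.6 CPM, with the keratins Krt8 and Krt18 at 0.59 and 0.37 and Tcfap2c at -0.60. The neural markers summed to 212 and 146 CPM, with Ina at -0.81, Tubb3 at -0.64, Nes at -0.54 and Pax6 at -0.15, and the fibroblast marker Vim stood at 229 and 304 CPM. The part of these marker differences in the ratios of the pluripotency genes was not tested.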

How the data were processed

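The 6 libraries were 4 of RNA or RPF and 2 of CLIP, grouped by sample title. Per the submitters' processing notes, the tools were cutadapt and Bowtie2 and the build was mm9. Tool versions, the counter, strand handling and the treatment of multiple matches are not given in the sources used here. The deposited table gives raw read counts per transcript region and raw counts of reverse transcription stops, per the file headers, and the authors' log2 RPM, TE and CLIP enrichment values, which were used only as an alternative. It had 6535 rows, of which 3 repeated a symbol and were dropped (keeping the row with more RNA reads on average), and every gene had at least 151 CDS reads in each library, so genes that fell below were not analysed here. The planned floor of a mean of 64 reads removed 0 genes.

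Ratios used 0.5 added reads, the library's sum and the median of all genes. CLIP over RNA used the mean of both replicates. Shares have exact Clopper-Pearson intervals. Since PCR copies may be among the reads, intervals cover counting error only. The labels do not state whether the CLIP replicates were separate cultures, and their SD may reflect technical spread. The script was tested on simulated counts (Python 3.11.15, numpy 2.4.6, pandas 2.3.3, scipy 1.17.1). Members and lists were chosen with earlier results of these data known. Every gene of the list is named. Read counts are given for Pou5f1, Sox2, Klf4, Esrrb, the 4 highest and lowest in RNA, RPF and TE, and those past 1.5-fold, and from each further list the 2 highest and lowest in RNA and TE are named. Alternatives were no centring, the whole coding sequence, 5 added reads, a higher read floor, a smaller fold size (0.32 on the log2 scale), abundant genes as reference, the authors' log2 values, whole-transcript RNA reads, and single CLIP replicates.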

Additional observations from a re-analysis of the deposited data

How the results depend on the processing

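No paired analysis was possible because only the CLIP libraries, which form 1 group, carry replicate numbers. The median TE change of the 37 genes stayed between -0.18 and -0.15 under all alternatives, and 30 to 32 of the 37 were below 0, or 18 of the 22 genes left by a higher read floor. With that floor 1 gene was called higher and 1 lower in RNA with 11 below 0 and a median of -0.02, 0 higher and 1 lower in RPF with 15 below 0, and 0 lower in TE, since Tbx3, Tcl1, Klf2 and Thap11 were below the floor. Esrrb was the gene then higher in RNA, at 0.62. With the whole coding sequence 1 gene was called higher in RNA and 0 lower in TE, and with whole-transcript reads 1 was higher in RNA, Tbx3 in both cases. At the smaller fold size, 6 genes were higher and 4 lower in RNA, 3 and 9 in RPF, and 0 and 7 in TE. The median CLIP over RNA was between 0.57 and 0.69 with 1 replicate left out, the lower value without replicate 2, and 0.37 over footprints. Of the single ratios, those that changed sign under an alternative were close to 0: Pou5f1, Myc, Trim71, Dppa5a and Thap11 in RNA, Dppa5a, Myc, Tdgf1 and Klf4 in RPF, and Prdm14 and Sox2 in TE. Genes past 1.5-fold kept their direction under the alternatives in which they were fitted. With 1 library per condition the spread between cultures is unknown, and genes under 151 reads in any library were not analysed.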

Other observations

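In siCtrl, Esrrb and Nr5a2 had 0 RNA reads and 0 footprints in their first 15 codons, and in siPKM Esrrb had 1 RNA read and 2 footprints there and Nr5a2 had 0 of both. Tbx3 had 1 RNA read there in siCtrl, against 44 footprints. Tcl1 had 5.95% (4.43 to 7.79) of its siCtrl footprints in the 3' UTR, or 49 of 824, against a median of 0.124% over all genes, and 3.70% in siPKM. In RNA the 3' UTR held 79.8% of Lin28a reads, 78.4% of Tcfcp2l1 reads and 70.5% of Tcl1 reads in siCtrl, against a median of 26.2% over all genes.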
